A study of Mus musculus with 12 samples.

Results

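Of the 21887 protein-coding mouse genes examined, 9 encode homeodomain transcription factors that were grouped here because they mark granule neurons of the cerebellum or the hindbrain territory they come from, namely *Pax6*, *Meis1*, *Meis2*, *Pbx3*, *Barhl1*, *Barhl2*, *Lmx1a*, *En1* and *En2*. Each was described by the Zic1/2 peaks that overlapped its gene span or the 5 kb on either side of it. Merging the peaks of all libraries gave 286729 regions, of which 169 lay in the windows of these 9 genes and 135 of the 169 overlapped a gene span itself. The cells were granule neurons cultured from mouse cerebellum and collected on day 1, 3, 5 or 7 in vitro (written DIV1 to DIV7), and each day had 3 libraries, biological replicates according to the series design. The labels name no strain, genotype or age of the animals. Cytosine arabinoside, which blocks DNA synthesis and is used against cells that still divide, was given on DIV2 at 1 uM, so the DIV1 libraries precede it and the libraries of the other 3 days follow it. Binding was measured by CUT&RUN, in which an antibody, here to the C terminus of Zic1/2, brings a nuclease to the bound protein in nuclei and the released DNA is sequenced. The study asked how Zic1/2 binding changes as the neurons mature.

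Zic1 and Zic2, zinc finger proteins that bind DNA, are present in granule neuron progenitors and in the neurons they form. Homeodomain factors bind DNA through a conserved helical domain, and combinations of them give hindbrain cells their identity. The engrailed genes *En1* and *En2* pattern the midbrain and anterior hindbrain and later the folds of the cerebellum. *Pax6*, *Barhl1* and *Barhl2* are expressed in cells that leave the rhombic lip, the source of granule neurons, and *Lmx1a* marks the roof plate and part of the rhombic lip. *Meis1*, *Meis2* and *Pbx3* encode TALE factors, homeodomain proteins that pair with one another and with other homeodomain proteins on DNA.

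A window around the start site, defined below, was available for 7 of the 9 genes and not for *En2* or *Pbx3*. A Zic1/2 peak touched that of *Lmx1a* in 1 library and that of *Meis2* in 0. Peaks touched a window of the other 5 genes in at least 5 of the 12 libraries, a count not set against all genes. A peak that touches this window need not cover the start site itself. The 250 bases before those start sites are printed because they are the part of the window that lies before the start site. They were taken from RefSeq on GRCm38.p6 (mm10), read 5′ to 3′ on the gene's own strand, and capitals mark the bases that lay inside a peak in at least 6 libraries. *Pax6* is on the plus strand at chr2:105668646-105668895, *Meis1* on the minus strand at chr11:19018970-19019219, *Barhl1* on the minus strand at chr2:28916669-28916918, *Barhl2* on the minus strand at chr5:106458167-106458416 and *En1* on the plus strand at chr1:120602237-120602486.
Pax6: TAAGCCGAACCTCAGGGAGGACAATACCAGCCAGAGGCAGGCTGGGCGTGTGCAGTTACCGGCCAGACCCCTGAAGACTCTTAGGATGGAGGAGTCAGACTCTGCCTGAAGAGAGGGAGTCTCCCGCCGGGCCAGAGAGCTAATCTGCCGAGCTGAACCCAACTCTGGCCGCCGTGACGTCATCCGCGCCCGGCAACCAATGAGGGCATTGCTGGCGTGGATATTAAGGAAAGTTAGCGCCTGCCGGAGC
Meis1: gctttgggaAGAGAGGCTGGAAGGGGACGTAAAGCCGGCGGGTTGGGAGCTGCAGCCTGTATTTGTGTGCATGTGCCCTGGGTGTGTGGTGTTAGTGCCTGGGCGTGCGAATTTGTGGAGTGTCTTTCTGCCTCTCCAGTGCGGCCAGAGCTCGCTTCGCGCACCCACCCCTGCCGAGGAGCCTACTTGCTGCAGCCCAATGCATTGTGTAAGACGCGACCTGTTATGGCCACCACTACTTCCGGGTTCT
Barhl1: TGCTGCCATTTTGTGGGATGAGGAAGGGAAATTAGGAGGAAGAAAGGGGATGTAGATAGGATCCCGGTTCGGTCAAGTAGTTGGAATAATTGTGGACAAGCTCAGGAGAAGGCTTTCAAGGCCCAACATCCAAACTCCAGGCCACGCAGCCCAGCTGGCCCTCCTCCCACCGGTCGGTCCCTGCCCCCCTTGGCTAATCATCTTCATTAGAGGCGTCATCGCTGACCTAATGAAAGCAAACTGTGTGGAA
Barhl2: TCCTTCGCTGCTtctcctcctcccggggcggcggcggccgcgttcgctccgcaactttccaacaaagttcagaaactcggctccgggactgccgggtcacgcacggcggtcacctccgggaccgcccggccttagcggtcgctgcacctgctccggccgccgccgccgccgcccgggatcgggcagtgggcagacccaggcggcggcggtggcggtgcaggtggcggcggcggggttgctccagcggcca
En1: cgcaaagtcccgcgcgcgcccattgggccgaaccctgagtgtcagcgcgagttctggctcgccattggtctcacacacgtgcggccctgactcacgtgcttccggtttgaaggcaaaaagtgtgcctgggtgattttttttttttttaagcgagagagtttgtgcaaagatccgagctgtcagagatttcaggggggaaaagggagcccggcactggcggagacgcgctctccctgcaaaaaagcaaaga

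At least 6 libraries had a peak over all 250 bases before *Pax6* and before *Barhl1*, over 241 of them before *Meis1* and over 12 before *Barhl2*, whereas no base before *En1* lay in a peak in more than 4 libraries. A peak touched the window from 250 bases before to 50 bases after the start site of *Pax6* and of *Meis1* in 10 libraries each, of *Barhl1* in 9, of *Barhl2* in 6 and of *En1* in 5. These counts are for the start sites printed above. The printed *Barhl1* window had a peak in 3, 3, 2 and 1 of the 3 libraries on DIV1, DIV3, DIV5 and DIV7. For *En1* the numbers were 2, 1, 2 and 0. A second *Barhl1* window, with its start site at chr2:28912495, had a peak in 1, 0, 2 and 1 libraries. For a second *Pax6* window, with its start site at chr2:105682463, they were 2, 2, 0 and 1, so 5 libraries in all. RefSeq windows were matched for 7 of the 9 genes, 9 windows in all. The letters CCTGCTG, a core of the Zic motif, were searched on both strands and occurred in none of the 9 windows, against 10.5% of 32851 RefSeq windows of the same length. TGGGTGGTC, the Gli motif that Zic proteins also bind, was in none of the 9 and in 0.253% of all windows.

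Zic1/2 peaks at the homeodomain genes became fewer with days in culture. Over the 9 genes together the libraries held 12.8 ± 2.08 peaks per 10000 peaks of the library on DIV1, 11.4 ± 1.83 on DIV3, 7.42 ± 1.97 on DIV5 and 5.81 ± 2.36 on DIV7 (SD, n = 3 each). By library the values were 14.7, 10.6 and 13.0 on DIV1, 13.1, 9.46 and 11.5 on DIV3, 9.62, 6.81 and 5.83 on DIV5, and 4.15, 8.52 and 4.77 on DIV7. Every DIV7 library lay below every DIV1 library, and DIV7 replicate 2 stood above the other two DIV7 libraries. The summed number of peaks behind these values was 88 to 97 on DIV1, 73 to 87 on DIV3, 45 to 86 on DIV5 and 27 to 66 on DIV7.

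A trend over the days was fitted to each gene with limma, on log2 of the peaks per 10000 plus 0.1 and separately on log2 of the signal share plus 1. The signal share is the number of reads in the peaks of a gene's window per M (1000000) reads in all peaks of the library. *En1*, *En2*, *Barhl1* and *Barhl2* fell in both measures, at a Benjamini-Hochberg adjusted p under 0.05 over the 15936 genes with a peak in at least 6 libraries. These are 4 of 9 genes, where 1.91% of all genes tested fell in peak number and 4.28% in signal share, and none of the 9 rose, where 0.628% and 1.11% of all genes did. The slopes of *Pax6*, *Meis1*, *Meis2*, *Pbx3* and *Lmx1a* were also negative and did not pass. The median slope of the 9 genes was -0.20 log2 units per day for the peak number and -0.22 for the signal share, against -0.0068 and -0.026 over all genes. Slopes were negative for 9 of 9 genes in both measures, against 53.7% of all genes for the peak number and 60.4% for the signal share.

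These calls depended on how the lists were scaled and counted. Scaled to the megabases covered by peaks, which shrank in later lists, the median slope of all genes moved up by 0.077 per day, and 467 genes rose and 74 fell, in place of 100 rising and 305 falling. Of the 4 genes only *En1* then passed in peak number (limma adjusted p = 0.0330), with *En2* at an adjusted p of 0.0513, *Barhl1* at 0.0656 and *Barhl2* at 0.0901, and the slope of *Meis2* turned to 0.0020. With no flank around the gene span *En1* missed in both measures (limma adjusted p = 0.0643 for the peak number and 0.0569 for the signal share), as did *Barhl1* (adjusted p = 0.143 and 0.0671), and *En2* missed in signal share (adjusted p = 0.0973). With a pseudocount of 0.02 only *En2* passed in peak number (limma adjusted p = 0.00929), and with 0.1 only *Barhl2* and *En2* passed in signal share (adjusted p = 0.0274 and 0.0127). *Barhl1* missed in both measures when the lowest quartile of peaks by total signal was left out (limma adjusted p = 0.0501 and 0.0517), and in signal share when genes with a peak in at least 1 library were tested (adjusted p = 0.0532).

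The later libraries also held fewer reads in peaks, and this moved with the results. Each library had between 1.01 and 3.27 M reads in its peaks, and Pearson's r of the log2 of that number with the day was -0.70 over the 12 libraries. When log2 reads in peaks entered the fit as a term, none of the 9 genes passed in either limma fit, where 0 genes of all passed for the peak number (1279 at an unadjusted p under 0.05) and 3 for the signal share. Without the 3 libraries with the fewest reads in peaks, which are DIV7 replicates 1 and 3 and DIV5 replicate 3, all 9 slopes remained negative and none passed. The 4 genes differed in how far their slopes moved. With the depth term the peak number slope was -0.25 log2 units per day for *En2*, against -0.27 without it, whereas it was -0.18 for *En1*, against -0.41, -0.16 for *Barhl2*, against -0.27, and -0.088 for *Barhl1*, against -0.33. Without the 3 libraries it was -0.28 for *En2* (limma adjusted p = 0.0592) and -0.13 for *Barhl1* (adjusted p = 0.344). The labels give 50 bases for every library, but the summed signal came in 2 step sizes, read here as 2 read lengths, with whole steps of 51 throughout DIV1 and in 1 further library of each later day (replicate 1 of DIV3 and replicate 3 of both DIV5 and DIV7), and of 50 in the others. With the step size as a term *En1* missed in both measures (limma adjusted p = 0.0716 for the peak number and 0.0624 for the signal share), *Barhl2* in peak number (adjusted p = 0.0618) and *Barhl1* in signal share (adjusted p = 0.0654). Within the 50-base libraries no member passed, and within the 51-base libraries *En2* passed in signal share alone (limma adjusted p = 0.0477). Day, depth and step size cannot be told apart in full in this design. The step from DIV1 to the later days also cannot be told apart from cytosine arabinoside, given on DIV2. Peak lists hold no RNA, and a Zic1/2 peak at a marker gene does not show its expression, so cell identity could not be checked. Peaks at marker genes are given as a description only, and the granule neuron list includes *Zic1* and *Zic2* themselves. Of 11 granule neuron marker genes 10 had a peak in all 12 libraries, as did 3 of 7 Purkinje cell, 1 of 4 interneuron, 2 of 5 astrocyte, 1 of 5 oligodendrocyte, 0 of 4 microglia and 2 of 3 endothelial marker genes, against 52.6% of all genes. What part other cell types had in the trends was not tested.

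**Figure D1:**
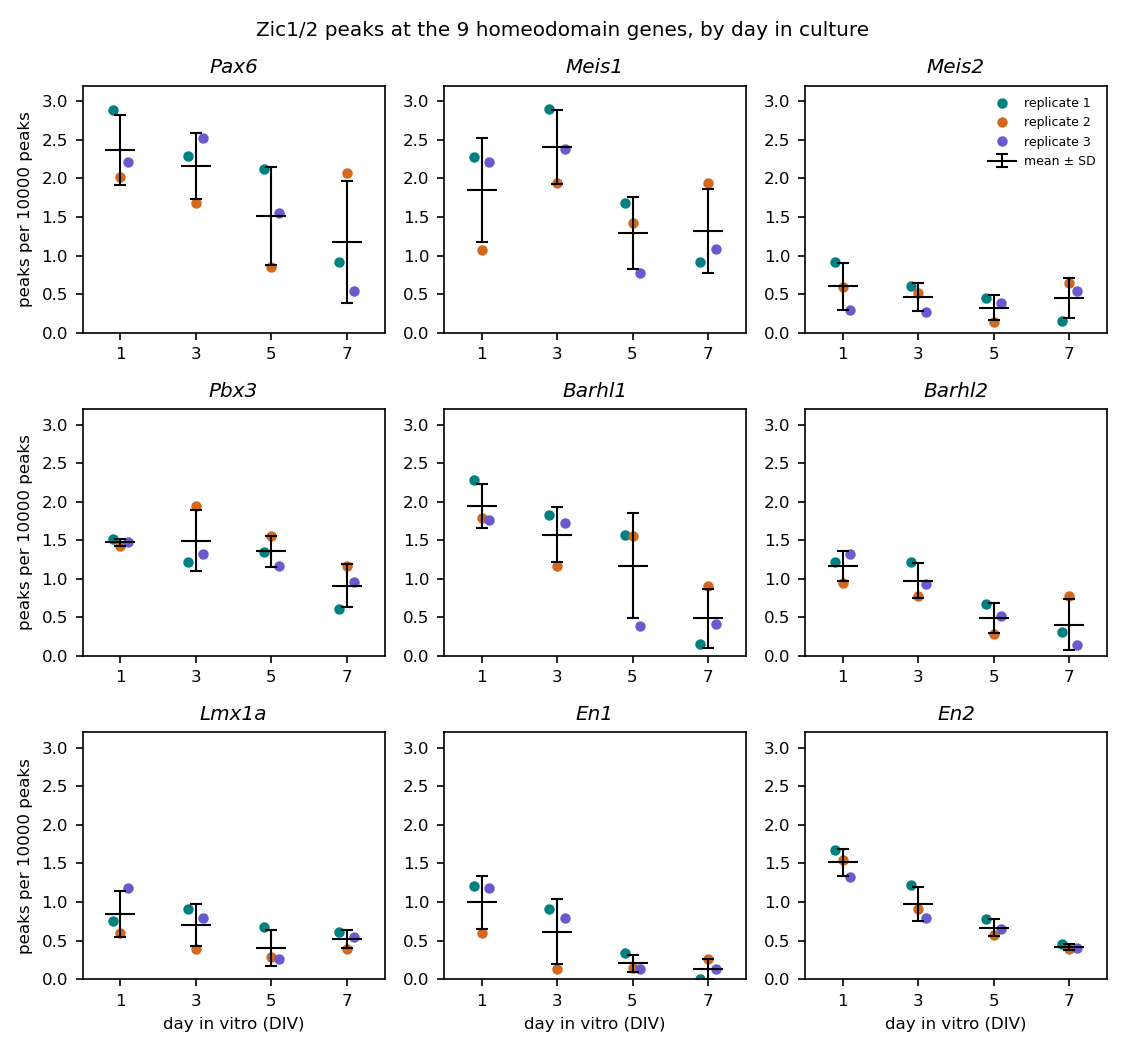
Zic1/2 peaks per 10000 peaks of the library (y axis) in the window of each homeodomain gene against the day in vitro (x axis), with 1 point per library, and the mean and SD of 3 libraries as bars. In *En2* the DIV7 libraries sit between 0.387 and 0.461, all below the DIV1 libraries, which sit between 1.33 and 1.67.

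Peaks became fewer at both engrailed genes. *En2* had 11, 13 and 9 peaks on DIV1, 8, 7 and 6 on DIV3, 7, 4 and 5 on DIV5, and 3, 3 and 3 on DIV7. No DIV5 or DIV7 library reached the number of any DIV1 library, and the 3 DIV7 libraries did not differ. For peaks per 10000, all DIV7 libraries lay below all DIV1 libraries at 12.7% of genes tested. The share with DIV5 included was not counted. Per 10000 peaks the means were 1.51 ± 0.174, 0.974 ± 0.220, 0.666 ± 0.109 and 0.419 ± 0.0378 (SD, n = 3) in the order of the days. The limma slope fell by 0.27 ± 0.040 log2 units per day (adjusted p = 0.00395). The signal share of *En2* was 169, 121.9 and 128 per M on DIV1, 112.2, 82.2 and 75.5 on DIV3, 74.4, 86.6 and 61.1 on DIV5, and 48.6, 47.0 and 20.7 on DIV7. It fell by 0.30 ± 0.052 log2 units per day (limma adjusted p = 0.00967). *En2* passed in both measures whichever single library was left out, with the highest limma adjusted p at 0.0229 for the peak number and 0.0404 for the signal share. It was the only one of the 9 genes to do so.

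*En1*, which acts earlier than *En2* in the same territory, had 8, 5 and 8 peaks on DIV1, 6, 1 and 6 on DIV3, 3, 1 and 1 on DIV5, and 0, 2 and 1 on DIV7. A library without a peak is below the authors' peak threshold and is not shown to lack binding. The signal share was 87.2, 35.6 and 80.8 per M on DIV1, 49.7, 4.81 and 37.5 on DIV3, 12.4, 5.48 and 7.79 on DIV5, and 0, 8.04 and 6.46 on DIV7. All DIV5 and DIV7 libraries lay below all DIV1 libraries in signal share. For DIV7 alone this held at 19.1% of genes tested, and the share with DIV5 included was not counted. The limma slope fell by 0.41 ± 0.085 log2 units per day for the peak number (adjusted p = 0.0241) and by 0.66 ± 0.14 for the signal share (adjusted p = 0.0217), the steepest of the 9 genes in both. The peak number no longer passed without DIV1 replicate 1 (limma adjusted p = 0.0857), DIV1 replicate 3 (adjusted p = 0.0811) or DIV7 replicate 1 (adjusted p = 0.0729). The signal share no longer passed without DIV1 replicate 1 (limma adjusted p = 0.0772) or DIV1 replicate 3 (adjusted p = 0.0700).

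The Bar-class genes declined as well. *Barhl1*, which in mice is needed for the migration and survival of granule cells, had 15, 15 and 12 peaks on DIV1, 12, 9 and 13 on DIV3, 14, 11 and 3 on DIV5, and 1, 7 and 3 on DIV7. The DIV7 libraries were all below the DIV1 libraries, while DIV5 spanned nearly the whole range. Its signal share was 215, 165 and 182 per M on DIV1, 195, 54.8 and 145 on DIV3, 135, 71.7 and 25.8 on DIV5, and 7.93, 75.2 and 23.9 on DIV7. The slope fell by 0.33 ± 0.080 log2 units per day for the peak number (limma adjusted p = 0.0399). For the signal share it fell by 0.47 ± 0.12 log2 units per day (limma adjusted p = 0.0431). Over the 12 libraries the log2 signal share of *Barhl1* had Pearson's r = 0.973 with log2 reads in peaks, the highest of the 9 genes. The lowest was *Meis2* at 0.351, and *En2* stood at 0.7004. These values describe libraries that share depth and day.

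*Barhl2*, the close relative of *Barhl1*, had 8, 8 and 9 peaks on DIV1, 8, 6 and 7 on DIV3, 6, 2 and 4 on DIV5, and 2, 6 and 1 on DIV7. Only DIV7 replicate 2 among the DIV7 libraries came near the DIV1 numbers. Its signal share was 165, 85.6 and 129.9 per M on DIV1, 126, 66.4 and 69.1 on DIV3, 69.3, 51.3 and 56.3 on DIV5, and 21.8, 61.9 and 15.5 on DIV7. The slope fell by 0.27 ± 0.065 log2 units per day for the peak number (limma adjusted p = 0.0378) and by 0.34 ± 0.072 for the signal share (adjusted p = 0.0211). Leaving out any of DIV1 replicates 1 to 3, DIV3 replicates 1 and 3, or DIV7 replicates 1 and 3 ended the call on the peak number for *Barhl1* (limma adjusted p from 0.0541 to 0.110) and for *Barhl2* (adjusted p from 0.0506 to 0.107). The same 7 libraries and DIV5 replicates 2 and 3 ended that on the signal share of *Barhl1* (limma adjusted p from 0.0551 to 0.115). For the signal share of *Barhl2* it was DIV1 replicate 1 (limma adjusted p = 0.0772), DIV1 replicate 3 (adjusted p = 0.0623) and DIV7 replicate 1 (adjusted p = 0.0604).

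**Figure D2:**
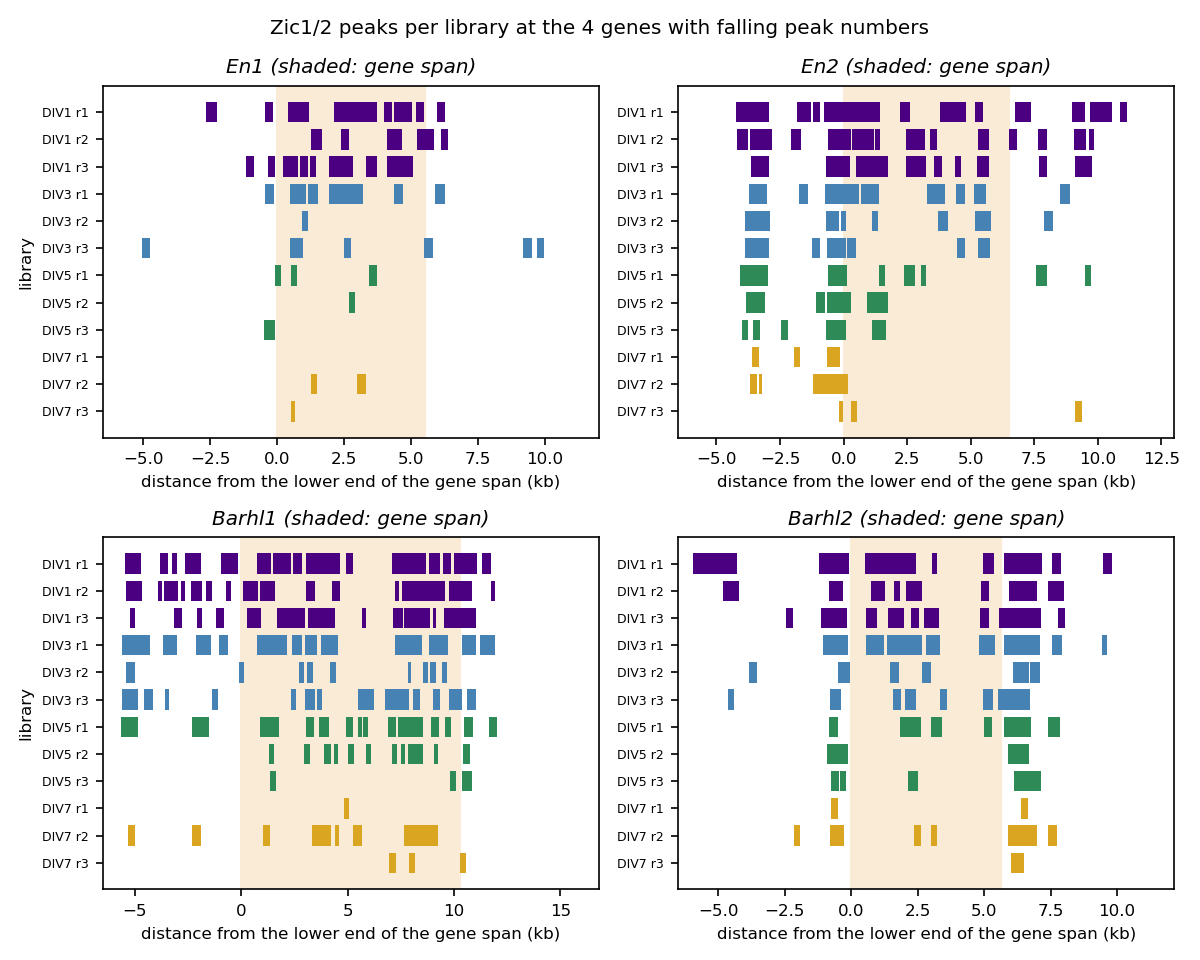
Position of every Zic1/2 peak in each of the 12 libraries (rows, DIV1 at the top) around *En1*, *En2*, *Barhl1* and *Barhl2*, as the distance in kb from the lower end of the gene span (x axis), with the gene span shaded. *En1* has 0, 2 and 1 peaks on DIV7, against 8, 5 and 8 on DIV1, and *En2* keeps 3 peaks in each DIV7 library.

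*Pax6*, a paired-domain and homeodomain factor of granule progenitors and neurons whose loss in mice disturbs granule cell migration, carried the most peaks on DIV1. It had 19, 17 and 15 peaks on DIV1, 15, 13 and 19 on DIV3, 19, 6 and 12 on DIV5, and 6, 16 and 4 on DIV7. The DIV7 libraries ran from well below the DIV1 libraries to within their range. The limma slope was -0.20 ± 0.064 log2 units per day for the peak number (adjusted p = 0.112) and -0.22 ± 0.079 for the signal share (adjusted p = 0.123). Without DIV7 replicate 2, the limma adjusted p was 0.0393 for the peak number and 0.0425 for the signal share. That library had 2.49 M reads in peaks, against 1.01 and 1.55 M in DIV7 replicates 1 and 3. Without it, calls over all genes rose as well, from 405 to 560 for the peak number and from 859 to 1291 for the signal share. *Pax6* also passed in both measures with a flank of 20 kb.

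None of the 3 TALE genes among the 9 passed. *Meis1*, a cofactor present in granule progenitors, had 15, 9 and 15 peaks on DIV1, 19, 15 and 18 on DIV3, 15, 10 and 6 on DIV5, and 6, 15 and 8 on DIV7. Its highest mean was on DIV3, with 2.41 ± 0.477 peaks per 10000 (SD, n = 3), and the DIV1 and DIV7 libraries overlapped. The limma slope of its peak number was -0.11 ± 0.065 log2 units per day (adjusted p = 0.374). *Pbx3*, a DNA-binding partner of Meis proteins, had 10, 12 and 10 peaks on DIV1, 8, 15 and 10 on DIV3, 12, 11 and 9 on DIV5, and 4, 9 and 7 on DIV7. Its DIV7 libraries, at 0.614 to 1.16 peaks per 10000, all lay below its DIV1 libraries, which sat close together at 1.43 to 1.52. The limma slope was -0.11 ± 0.047 (adjusted p = 0.236) for the peak number and -0.085 ± 0.031 (adjusted p = 0.126) for the signal share. Without DIV7 replicate 2, the DIV7 library with the most reads in peaks, the limma adjusted p for the signal share was 0.0438. *Meis2*, a paralogue of *Meis1*, had few peaks on any day, 2 to 6 on DIV1, 2 to 4 on DIV3, 1 to 4 on DIV5 and 1 to 5 on DIV7, and its days overlapped (limma slope of the peak number -0.081 ± 0.074, adjusted p = 0.610).

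*Lmx1a*, a LIM-homeodomain factor, had 5, 5 and 8 peaks on DIV1, 6, 3 and 6 on DIV3, 6, 2 and 2 on DIV5, and 4, 3 and 4 on DIV7. Its limma slope was -0.12 ± 0.063 log2 units per day for the peak number (adjusted p = 0.318) and -0.20 ± 0.087 for the signal share (adjusted p = 0.199). In signal share all its DIV7 libraries, at 27.7 to 33.6 per M, lay below all DIV1 libraries, at 50.1 to 79.0. All DIV7 libraries lay below all DIV1 libraries in peaks per 10000 for 5 of the 9 genes (*Barhl1*, *Barhl2*, *En1*, *En2* and *Pbx3*), against 12.7% of genes tested. In signal share they did so for 7 of the 9, with *Lmx1a* and *Pax6* in addition, against 19.1% of genes tested.

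The 9 genes differ widely in length, so density was set per window length. Per 10 kb of window, averaged over the 12 libraries, *Barhl1* held 0.637 peaks per 10000, *En2* 0.541, *Barhl2* 0.485, *Pax6* 0.457 and *En1* 0.313. The long genes were sparser, with *Meis1* at 0.115, *Pbx3* at 0.0621, *Lmx1a* at 0.0361 and *Meis2* at 0.0212. The 4 genes that fell have gene spans of 5.5 to 10.3 kb, against 29.5 to 206 kb for the other 5.

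The strength of the best peak of each gene was set beside the number of peaks. Strength was taken as the percentile of a peak's maximum signal, the authors' highest coverage in the peak, among all peaks of its library. The strongest *En2* peak stood at percentile 86.1 ± 2.09 on DIV1, 85.5 ± 6.60 on DIV3, 83.3 ± 4.19 on DIV5 and 82.6 ± 2.22 on DIV7 (SD, n = 3). The DIV7 mean lay below the DIV1 mean by more than the SD of either day and by less than the SD on DIV3 or DIV5. The strongest *Barhl1* peak stood at 87.0 ± 4.07 on DIV1, 83.2 ± 7.55 on DIV3, 68.1 ± 19.7 on DIV5 and 48.2 ± 28.0 on DIV7, with DIV7 libraries at 39.6, 79.5 and 25.5. That of *Pbx3* stayed between 82.7 and 97.8 in all 12 libraries and that of *Meis1* between 71.0 and 96.4. For *En1* it was 20.2 and 82.6 in the 2 DIV7 libraries with a peak, against 61.3 to 77.0 on DIV1. Percentiles move in steps, since the median maximum signal of a library was only 4 to 7.

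Most of the 169 regions were seen rarely. A peak was called in 1 library for 84 of them, in 2 libraries for 16, in 3 to 9 for 52, in 10 or 11 for 9 and in all 12 for 8. Of all 286729 regions, 12276 were called in all 12. A library had a peak in 65.7 ± 5.51 of the 169 on DIV1, 59.0 ± 4.58 on DIV3, 44.0 ± 16.5 on DIV5 and 33.3 ± 15.3 on DIV7 (SD, n = 3). These counts are not set against the same count over all regions. The whole lists held 65919, 84127 and 67904 peaks on DIV1, and 65102, 77471 and 73318 on DIV7. Whether a region called in 3 to 9 libraries was called more on early or on late days was tested with an exact conditional trend test, two-sided and adjusted over all 52519 such regions by the Benjamini-Hochberg method. No region passed anywhere, so percent called was 0, with 6798 regions (12.9%) at an unadjusted exact p under 0.05. The lowest exact p was 0.00216, the least the test can give with 12 libraries, and the lowest adjusted p was 0.134. The test could therefore call no region here, and 0 calls do not show that presence was constant. Of the 52 regions of the homeodomain genes, 45 were called more on early days and 7 more on late days, against 58.6% of all regions tested on early days. Of the 52, 9 had an unadjusted exact p under 0.05, all 9 more on early days, against 11.1% of all regions tested.

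Among the 52 regions tested, the lowest exact p was that of a pair of regions inside *En2*. How many of all 52519 regions tested reached the same p is not reported here, so the pair is described and not set apart. The region at chr5:28168990-28170524 held 60, 13 and 27 reads on DIV1 and 61, 17 and 15 on DIV3, and its neighbour at chr5:28170805-28171484 held 21, 25 and 25 reads on DIV1 and 25, 22 and 21 on DIV3. Neither had a peak in any DIV5 or DIV7 library (exact p = 0.00216, adjusted p = 0.134 for each). At the lower end of the same gene the region at chr5:28164444-28167454 kept a peak in all 12 libraries, with 186, 114 and 162 reads on DIV1, 149, 49 and 79 on DIV3, 72, 125 and 65 on DIV5, and 29, 91 and 23 on DIV7. In *En1* the region at chr1:120606462-120607577 had a peak in all DIV1 libraries, with 72, 42 and 54 reads, in DIV3 replicate 1 with 18 reads and in no later library (exact p = 0.0121, adjusted p = 0.134). All 6 tested regions of *En1* and all 6 of *En2* were called more on early days, against 58.6% of all regions tested.

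Other genes also held regions called mostly on early days, again without the share of all regions with such a p. A region of *Lmx1a* at chr1:167729162-167729800 had 47, 22 and 25 reads on DIV1, 30 and 16 reads in DIV3 replicates 1 and 2, and no peak elsewhere (exact p = 0.00758, adjusted p = 0.134). One of *Pax6* at chr2:105693225-105693752 had 14, 11 and 17 reads on DIV1, 13 in DIV3 replicate 1 and no peak elsewhere (exact p = 0.0121, adjusted p = 0.134). A region of *Pbx3* at chr2:34178827-34179812 was called in all DIV1 and DIV3 libraries, in DIV5 replicates 1 and 3 and in no DIV7 library, with the same p. In *Barhl2* the region at chr5:106457317-106457944, 222 bp from the start site, had 21, 14 and 19 reads on DIV1, 24 and 13 in DIV3 replicates 1 and 3, 17 in DIV5 replicate 1 and no peak elsewhere (exact p = 0.0216, adjusted p = 0.210). Such peaks rest on few reads, and a median peak held 9 to 26 reads depending on the library. The gene table used here gives spans but not exons, so regions within a span were not split into exons and introns.

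**Figure D3:**
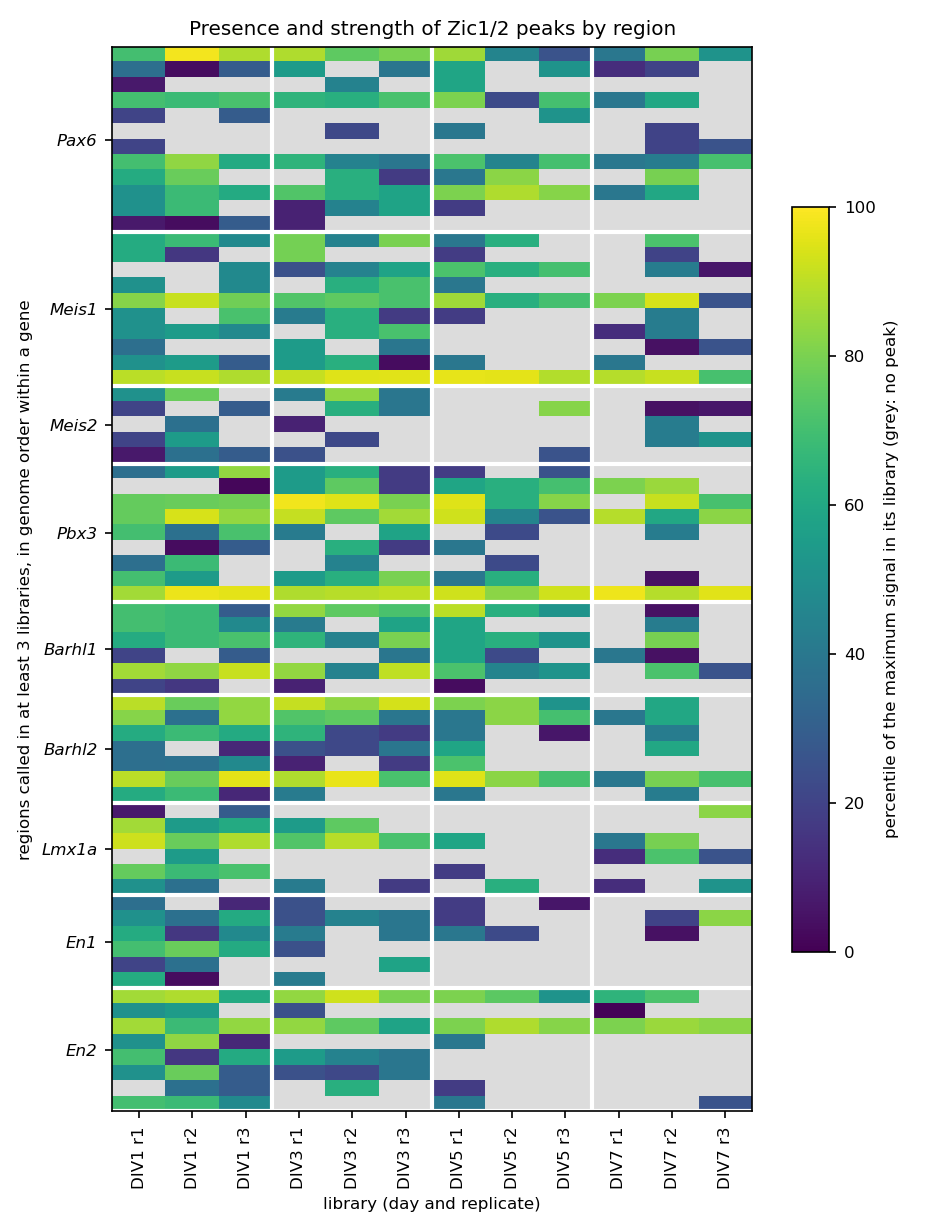
Percentile of the maximum signal among all peaks of the library (colour) for the 69 regions of the homeodomain genes called in at least 3 libraries (rows) in each of the 12 libraries (columns), with grey where no peak was called. Grey cells increase towards DIV7, while 8 rows are filled in all 12 libraries.

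A peak was called in all 12 libraries at 8 regions, 2 each at *Pax6*, *Meis1* and *Pbx3* and 1 each at *Barhl2* and *En2*. A merged region can hold separate peaks of different libraries, so a call in all 12 need not mean 1 common peak. The start site windows printed above for *Pax6*, *Meis1* and *Barhl2* were touched by a peak in 10, 10 and 6 libraries. At these shared regions the maximum signal was ranked against the 12276 regions shared by all libraries, and the ranks, as normal scores, were fitted with limma. None of the 8 passed for the trend over days, where 2.04% of shared regions did, or for DIV7 against DIV1, where 1.89% did. The region over the *Pax6* start site, chr2:105666313-105669473, came nearest. Its percentile among shared regions was 16.1, 89.2 and 50.5 on DIV1, 51.7, 25.1 and 27.8 on DIV3, 32.8, 3.58 and 2.35 on DIV5, and 10.4, 19.9 and 14.0 on DIV7. The libraries of DIV1 spread over more than the means of the days differ. The trend was -0.22 ± 0.084 normal score units for each day (adjusted p = 0.180 by limma) and DIV7 minus DIV1 was -1.15 ± 0.52 (adjusted p = 0.290), and without DIV1 replicate 2 these were -0.14 (adjusted p = 0.455) and -0.57 (adjusted p = 0.671). Ranked by total signal in place of the maximum, the trend at this region passed (-0.24 ± 0.066, limma adjusted p = 0.0424), where 7.52% of shared regions did.

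The other 7 shared regions did not pass by maximum signal either, and their percentiles moved in different ways. The region over the *Meis1* start site, chr11:19018530-19022012, averaged percentile 55.0 ± 3.90 on DIV1, 72.4 ± 8.59 on DIV3, 71.0 ± 15.5 on DIV5 and 49.9 ± 19.2 on DIV7 (SD, n = 3), so that DIV3 stood above DIV1 by more than the SD of either day. A region at the upper end of *Pbx3*, chr2:34370832-34373695, was the strongest of all 169 by mean reads, with 59, 157 and 69 reads on DIV7, against 227, 147 and 213 on DIV1. Its percentile averaged 72.3 ± 25.0 on DIV7, against 70.2 ± 21.1 on DIV1. The shared *En2* region averaged 31.4 ± 18.8 on DIV1, 23.97 ± 16.8 on DIV3, 35.0 ± 14.3 on DIV5 and 40.9 ± 8.19 on DIV7. The region over the *Barhl2* start site, chr5:106458036-106459712, averaged 52.3 ± 30.8, 50.3 ± 34.4, 41.6 ± 25.7 and 19.5 ± 8.95 in the order of the days (limma trend adjusted p = 0.373). *Barhl1* had no shared region. Its start site region, chr2:28914441-28918765, was called in 11 libraries, with 279, 209 and 226 reads on DIV1, 196, 40 and 165 on DIV3, 137, 74 and 31 on DIV5, and 78 and 37 in DIV7 replicates 2 and 3. In 9 of these libraries a peak touched the printed start site window, and in DIV5 replicate 3 and DIV7 replicate 3 none did.

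**Figure D4:**
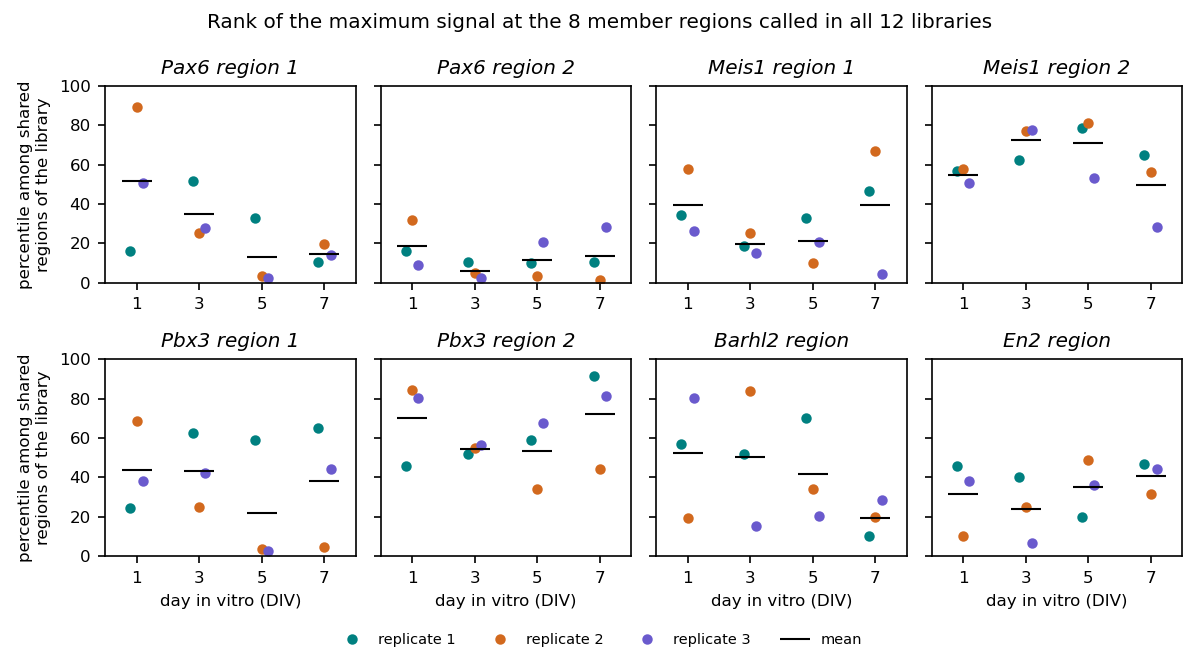
Percentile of the maximum signal among the 12276 shared regions of a library (y axis) against the day in vitro (x axis) for the 8 regions of the homeodomain genes called in all 12 libraries, with 1 point per library and the mean of 3 libraries as a line. None of the 8 passed the trend test, and the libraries of a day spread widely, as at the first *Pax6* region with 16.1, 89.2 and 50.5 on DIV1.

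Other homeodomain genes were set beside the 9. Of 77 listed, 65 were tested, and in the limma fits 11 fell and 0 rose in peak number while 15 fell and 0 rose in signal share. Over all genes tested 1.91% fell and 0.628% rose in peak number, and 4.28% fell and 1.11% rose in signal share. Negative slopes were found for 52 of the 65 in peak number and for 57 in signal share, against 53.7% and 60.4% of all genes. The median slope of these 65 genes was -0.14 log2 units per day for the peak number, against -0.20 over the 9 genes, and -0.23 for the signal share, against -0.22. Among the further TALE genes that fell in signal share were *Meis3* and *Irx2*, at -0.21 each (limma adjusted p = 0.0162 and 0.0259). Among 11 other genes of midbrain and hindbrain patterning 3 fell, with *Otx1* at -0.38 ± 0.053 (limma adjusted p = 0.00343), *Pax5* at -0.36 ± 0.057 (adjusted p = 0.00664) and *Otx2*, which specifies the midbrain side of the boundary, at -0.75 ± 0.15 (adjusted p = 0.0156). Of 12 genes of other cerebellar or hindbrain cell types 4 fell, among them *Lbx1*, a factor of dorsal hindbrain interneurons, at -0.73 ± 0.10 (limma adjusted p = 0.00367), and *Lhx1* and *Lhx5*, known from Purkinje cells, at -0.21 ± 0.040 (adjusted p = 0.0135) and -0.58 ± 0.15 (adjusted p = 0.0470). Of 20 broadly neuronal genes 5 fell, with *Cux2* at -0.30 ± 0.040 (limma adjusted p = 0.00264), *Pou3f2* at -0.27 ± 0.047 (adjusted p = 0.00939) and *Pou3f3* at -0.41 ± 0.088 (adjusted p = 0.0217). None of 9 homeodomain genes of non-neuronal tissues passed in either measure. At the shares of all genes past the threshold, 0 of 9 does not set this list apart.

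**Figure D5:**
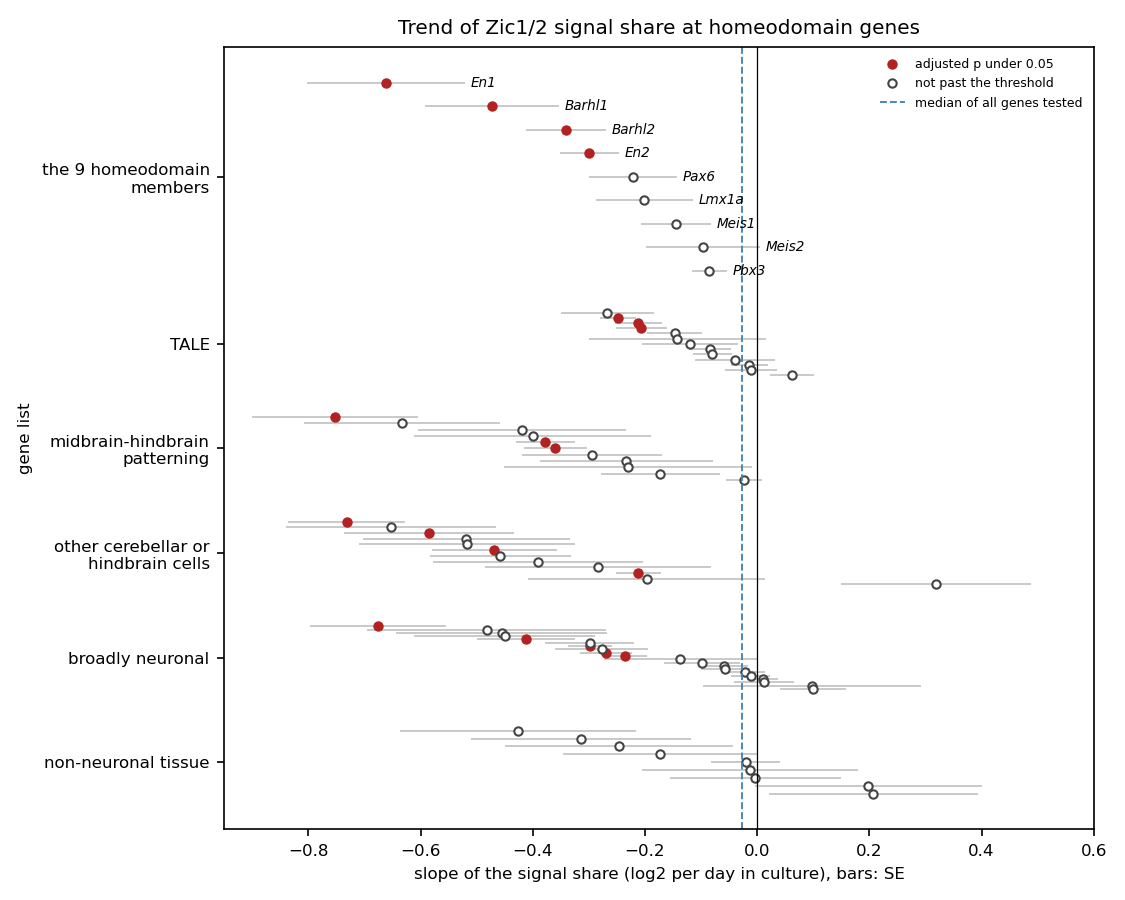
Slope of the signal share in log2 units per day in culture (x axis), with its SE as bars, for each tested gene of the 6 homeodomain lists (y axis, 1 point per gene), filled where the limma adjusted p is under 0.05. The 4 filled points of the 9 genes lie between -0.66 and -0.30, left of the dashed median of all genes at -0.026.

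Across the 12 libraries the genes of the group varied together to different degrees. Pearson's r of the log2 signal share was 0.910 between *Barhl2* and *En2*, 0.903 between *Barhl1* and *En1*, 0.884 between *Pbx3* and *Barhl2*, and 0.870 between *Pax6* and *Barhl2*, the 4 highest of all pairs, whereas for *Meis2* it lay between -0.0092 and 0.316 with each of the other 8. *Meis1* and *Meis2* gave the -0.0092. For the genes with a peak in all 12 libraries, the gene of most similar pattern elsewhere in the genome was *Cfap61* for *En2* (r = 0.977), *Kcnab2* for *Barhl2* (r = 0.975), *Xkr7* for *Pbx3* (r = 0.975), *Prrc2b* for *Barhl1* (r = 0.973), *Padi2* for *Lmx1a* (r = 0.960), *Slit3* for *Pax6* (r = 0.947), *Foxq1* for *Meis1* (r = 0.942) and *Arid3c* for *Meis2* (r = 0.872). Most of these partners were not singular. The genes with r above 0.9 numbered 105 for *En2*, 171 for *Barhl2*, 92 for *Pbx3* and 114 for *Barhl1*. They numbered 14 for *Lmx1a*, 17 for *Pax6*, 22 for *Meis1* and 0 for *Meis2*. All correlations here are descriptions over 12 libraries that share depth and day.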

How the data were processed

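Zic1/2 CUT&RUN was deposited as 1 peak list per library, 12 in all. The submitters' processing notes name SEACR 1.3, STAR 2.7.2b, DESeq2 1.36.0, Trimmomatic 0.38, bedtools 2.25.0, FastQC, MACS2 2.1 and mm10, without the step of each. Control, threshold and duplicate removal were not stated. The deposited signal values are the authors' own: summed coverage and highest coverage per peak, unscaled. Every total was a whole multiple of 50 or 51, and total divided by that step was read as reads; all intervals of error cover libraries only, and the total sequenced was not used here.

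Peaks sharing at least 1 bp were merged, over the autosomes, X and Y only. Gene spans, without strand or exons, came from RefSeq on GRCm38.p6, the build of mm10. Peaks per 10000 and signal share were fitted on the day with limma 3.58.1 (R 4.3.3) in all 12 libraries, over genes with a peak in at least 6, after tests on simulated data. Shared regions were fitted on normal scores of ranked maximum signal, and presence in 3 to 9 libraries by an exact conditional trend test. P-values were Benjamini-Hochberg adjusted, threshold 0.05. The 9 genes, the marker and homeodomain lists, and the naming rule (every shared region, the strongest and the 2 lowest-p regions per gene, listed genes past a threshold) were chosen with earlier results of these data known; not all items the rule covers are reported here. Replicate numbers were not used to pair libraries in the main fits, and the labels do not state whether same-numbered libraries share a preparation. Alternatives were depth, step size, flank, pseudocount, filters, scaling and single libraries left out.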

Additional observations from a re-analysis of the deposited data

How the results depend on the processing

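Limits come first from depth: a weak peak holds few reads, reads in peaks declined with the day, no DIV1 library lies among the 50-base libraries, and a missing peak is a value under the authors' threshold. The share of genes past the threshold for the peak number, 2.54% (405 genes, 100 rising and 305 falling), became 0.113% without the 3 libraries with the fewest reads in peaks, 0% within the 50-base libraries (1214 genes at an unadjusted limma p under 0.05), 0% within the 51-base libraries (3154), 0% with a term for log2 reads in peaks (1279), 1.12% with the step size as a term, 3.49% with a flank of 20 kb, 0.778% with a pseudocount of 0.02, 4.98% with a pseudocount of 0.5, and 0.414% to 3.51% with single libraries left out. Per Mb covered, 467 genes were rising and 74 falling, and the median of all genes moved by 0.46 on the log2 scale over the 6 days. The share for the signal, 5.39% (859 genes, 177 rising and 682 falling), became 1.18% without those 3 libraries, 0% within the 50-base libraries (1451 unadjusted), 2.102% within the 51-base libraries, 0.0188% with the depth term, 7.68% with a flank of 20 kb, 9.16% with a pseudocount of 10, and 1.75% to 8.10% with single libraries left out. Centred on the library median, 276 genes were rising and 601 falling, with the median moved by 0.14 over the 6 days. The cause of these changes was not tested. Of the 9 genes, *Pax6* passed in addition to *En1*, *En2*, *Barhl1* and *Barhl2* with a flank of 20 kb, and without DIV7 replicate 2 *Pax6* passed in both measures and *Pbx3* in signal share. The settings that ended calls on the 4 genes are given with those calls, apart from the replicate block, which is given last.

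Signs turned in these cases. With the depth term the peak number slope was 0.016 for *Meis1* and 0.066 for *Meis2*, per Mb covered it was 0.0020 for *Meis2*, and within the 51-base libraries the signal slope of *Meis2* was 0.046. The *Pbx3* region at chr2:34370832-34373695, with a trend of 0.017, gave -0.14 without the 3 libraries with the fewest reads, -0.13 with the depth term, -0.062 by total signal and -0.046 to 0.061 with single libraries left out. The *En2* region at chr5:28164444-28167454 gave -0.13 by total signal. The second *Pax6* region at chr2:105680003-105682527, at -0.043, gave 0.026 within the 50-base and 0.053 within the 51-base libraries, 0.044 with the step size as a term and -0.099 to 0.0056 with single libraries left out. The *Meis1* region at chr11:19007030-19008520, at -0.024, gave 0.028 without the 3 libraries with the fewest reads, 0.26 within the 50-base libraries, 0.021 with the depth term, 0.0030 over regions called in at least 10 libraries and -0.097 to 0.042 with single libraries left out. The *Meis1* start site region, at -0.021, gave 0.066 without the 3 libraries with the fewest reads and -0.046 to 0.033 with single libraries left out. Presence of a *Meis2* region at chr2:115938986-115939710, by mean day of its libraries less that of all, was -0.14 and became 0.33 for the maximum-signal part of the peak and -0.42 to 0.13 with single libraries left out. None of these passed a threshold.

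At shared regions the share past the trend threshold, 2.04% (251 regions, 91 rising and 160 falling), became 0.823% without the 3 libraries with the fewest reads, 0% within the 50-base libraries (1141 unadjusted), 0% within the 51-base libraries (1829), 0.0733% with the depth term, 7.52% by total signal, 3.50% (244 rising, 186 falling) on centred log2 maximum signal, 4.48% over regions called in at least 10 libraries, and 0.652% to 2.44% with single libraries left out. The share for DIV7 against DIV1, 1.89% (232 regions, 90 rising and 142 falling), became 0.269%, 0.147% with the depth term, 0.0489% with the step size as a term, 7.14% by total signal, 3.99% over regions called in at least 10 libraries, and 0.196% to 1.89% with single libraries left out. On centred log2 maximum signal 177 rose and 144 fell, and there was no value within the 50-base libraries, which hold no DIV1 library. The presence count was 0 under each alternative run, and within the 50-base or the 51-base libraries 0 regions had an unadjusted exact p under 0.05. In the main run even the lowest p the test can give had an adjusted p of 0.134. These counts of 0 therefore do not show stable presence. The replicate number as a block gave 358 and 613 genes, 186 and 238 shared regions and 0 regions by presence. *Barhl2* then missed in peak number (limma adjusted p = 0.0512) and *Barhl1* in signal share (0.0720). Same-numbered libraries had median correlations of 0.0266 over gene signal and 0.0350 over shared regions, against -0.0185 and -0.0120 for other numbers. Of the 18 same-numbered pairs 3 and 2 lay over 0.1, and 7 and 6 of 12 libraries lay closest to their own number. These values neither show nor exclude pairing.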
